A study of Homo sapiens with 8 samples.

Results

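The RNA levels of 10 genes that control entry into S phase were examined in OVCAR3 cells, a human high-grade serous ovarian carcinoma line: the E-type cyclins CCNE1 and CCNE2, the D-type cyclins CCND1, CCND2 and CCND3, the cyclin-dependent kinases CDK2, CDK4 and CDK6, and the inhibitors CDKN1A (p21) and CDKN1B (p27). The genes were found by their symbols among the 20165 rows of each count table, and each of the 10 had a row of its own. RNA-seq was done on 8 libraries, 2 in each of 4 groups. The siControl and siTARG1 cells had been transfected with siRNA, either a control or one directed at TARG1, the hydrolase encoded by OARD1 that removes mono(ADP-ribose) from proteins, at 30 nM for 48 h. For the groups named RACK1-WT and RACK1-Mut, transduced lines were used in which doxycycline at 1 µg/ml for 48 h induced both an shRNA against endogenous RACK1, a protein of the small ribosomal subunit, and an HA-tagged RACK1, either wild type or with its mono(ADP-ribosyl)ation sites mutated. Both lines carried lentiviral vectors and had been drug selected, and whether they were clones or pools is not given in the sources used here. Which TARG1 siRNA was sequenced is not given either. The study's methods state that sequencing used independent biological samples, so the libraries of a group were taken as biological replicates.

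Passage from G1 into S phase is driven by cyclins, which rise and activate their kinase partners. D-type cyclins bind CDK4 and CDK6 in response to growth signals, and E-type cyclins bind CDK2. These kinases phosphorylate the retinoblastoma protein RB1, which then releases E2F factors to transcribe the genes of DNA replication. The CIP/KIP proteins p21 and p27 bind cyclin-CDK complexes and inhibit CDK2, and CDKN1A is a classical target gene of p53. CCNE1 is amplified in a share of high-grade serous ovarian carcinomas, and OVCAR3 is widely used as a line with this amplification.

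The promoters of the 2 genes that differed between siTARG1 and siControl cells, CCNE1 and CDKN1A, are given below. They run from 250 bases before to 50 bases after the transcription start (RefSeq, GRCh38.p14, both on the plus strand). Capitals mark the GC box, GGGCGG, the word bound by factors of the Sp1 family, searched on both strands.
CCNE1, chr19:29811741-29812040: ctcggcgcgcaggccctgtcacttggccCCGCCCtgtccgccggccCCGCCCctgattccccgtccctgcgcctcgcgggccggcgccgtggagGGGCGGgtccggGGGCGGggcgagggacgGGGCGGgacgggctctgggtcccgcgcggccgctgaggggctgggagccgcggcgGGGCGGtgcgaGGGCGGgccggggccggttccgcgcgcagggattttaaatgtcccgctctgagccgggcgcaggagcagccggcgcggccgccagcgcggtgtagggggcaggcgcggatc
CDKN1A, chr6:36678464-36678763: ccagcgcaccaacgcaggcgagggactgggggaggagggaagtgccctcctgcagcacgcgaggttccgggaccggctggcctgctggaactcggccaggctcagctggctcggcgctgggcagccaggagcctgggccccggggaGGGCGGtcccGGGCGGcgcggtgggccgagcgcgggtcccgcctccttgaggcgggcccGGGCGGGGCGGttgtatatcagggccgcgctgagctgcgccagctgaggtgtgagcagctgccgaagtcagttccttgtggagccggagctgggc
The CCNE1 promoter held 7 GC boxes. The CDKN1A promoter held 4, of which those at -45 and -40 share a base. No E2F word (TTTCCCGC, TTTGGCGC, TTTCGCGC or TTTGCCGC, both strands) was found in either, or in any of the 9 promoters listed for 6 of the 10 genes. Of those 9 promoters, 7 held a GC box. Of all 35116 promoters of this length, 45% held a GC box and 3.31% an E2F word. With a word this rare, its absence from 9 promoters says nothing about control by E2F, and only exact words were searched.

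Exon counts per library ranged from 30989049 to 42668783, and the replicates of a group correlated at 0.9954 to 0.9964 across genes. OARD1, the target of the siRNA, was at 48.5 and 52.0 CPM (exon counts scaled to library size with TMM factors) in siControl cells and 3.1 and 3.97 after the knockdown, so that it fell by 3.83 on the log2 scale (SE 0.12, adjusted p = 1.2e-10). RACK1 exon reads averaged 4568.9 CPM in siControl, 4452.3 in siTARG1, 1830.0 in RACK1-WT and 1426.0 in RACK1-Mut cells. The endogenous and introduced transcripts share the coding part of these reads. PAX8, the defining factor of this tumour type, was at 265.4 to 438.7 CPM. The 13 ovarian carcinoma markers summed to 2612.2 to 4071.8 CPM, with the lowest mean, 2659.4, in siTARG1 cells, where KRT18 (1291.2 to 520.3 CPM) and KRT8 (1162.4 to 549.4 CPM) fell and CDH1 (105.2 to 296.9 CPM) rose. Between RACK1-WT and siControl cells, 10 of the 12 tested markers had an adjusted p under 0.05 in edgeR, 7 higher and 3 lower. Of all genes, 63.3% did. MSLN (22.4 CPM in siControl, 167.9 in RACK1-WT) and KRT7 (158.9 and 551.8) were higher, and MUC16 (452.7 and 176.6) was lower. The part of these marker differences in the results below was not tested. ESR1 and CLDN4, also in that list, were at most at 0.254 and 0.272 CPM. Leukocyte markers summed to at most 8.59 CPM, with CD3E at 0 and CD68 highest, at up to 6.31. Fibroblast markers summed to at most 9.36, with DCN at most at 0.142 and COL1A1 at up to 7.48. Endothelial markers summed to at most 11.5, with CDH5 at most at 0.0709 and KDR at up to 7.25, and PECAM1 had no row. KDR averaged 1.52 CPM in siControl, 0.488 in siTARG1, 6.0 in RACK1-WT and 6.8 in RACK1-Mut cells.

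In siTARG1 against siControl cells, 2 of the 9 genes that could be tested were called. CCNE1 was 1.36-fold higher, and CDKN1A was at 0.18 of its siControl level. CDKN1A averaged 28.6 CPM in siControl and 5.16 in siTARG1 cells, but also 3.92 in RACK1-WT and 4.63 in RACK1-Mut cells. OARD1 was at 44.6 and 42.3 CPM in those RACK1 groups. Whether the CDKN1A difference reflects the knockdown or a trait of the siControl libraries was not tested. In RACK1-Mut against RACK1-WT cells none of the 9 was called. A gene was called when its adjusted p was under 0.05 in edgeR's quasi-likelihood test over the 14024 genes with enough counts. In siTARG1 against siControl, 46.6% of all genes were called, 23.5% higher and 23.1% lower, so the 2 of 9, or 22.2%, were below the background. In RACK1-Mut against RACK1-WT, 0.00713% of genes, that is 1 gene, were called. At an unadjusted p under 0.05 the count was 687 of all genes and 0 of the 9, and with DESeq2 17 of all genes and 0 of the 9 passed. The effects of siTARG1 and RACK1-Mut differed for CCNE1 and CDKN1A, 2 of 9, against a background of 32.4%. In bulk RNA, fewer cells with a transcript and less of it per cell cannot be told apart.

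The RACK1-WT cells differed from the siControl cells in 6 of the 9 genes, 2 higher and 4 lower, where 63.3% of all genes were called, 31.9% higher and 31.4% lower. These groups differ in line, construct, doxycycline, siRNA and experiment, which cannot be told apart. This comparison shares its siControl libraries with that of siTARG1, so the values are set side by side and their likeness was not tested. It also depends on the scale. The RPKM deposited by the authors divides by all alignments of a library, of which exon counts made up 38.4% to 47.6% in the siRNA libraries and 51.4% to 56.2% in the RACK1 libraries. On that scale the median log2 difference of all genes between RACK1-WT and siControl was 0.37 instead of -0.02, 55.5% of all genes were called, and 87.9% of the calls were higher instead of 50.4%. For siTARG1 against siControl the median moved from 0.01 to 0.09, 25.4% of all genes were called, and 63.8% of the calls were higher instead of 50.4%.

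**Figure D1:**
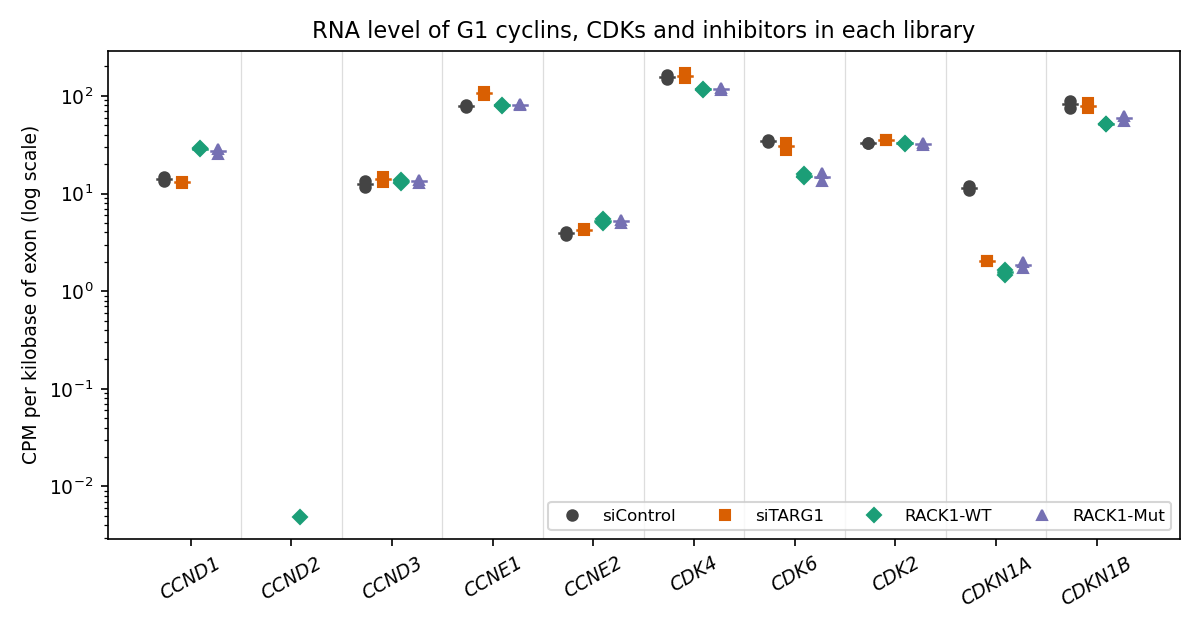
RNA level of each gene in each of the 8 libraries, as CPM per kilobase of exon on a log axis, with a short line at the mean of 2 libraries. CDKN1A in siControl cells, at 11.9 and 10.9, lies above the other 6 libraries, at 1.48 to 2.06. CCND2 is drawn for the library with 1 count only, since 0 cannot be shown on a log axis.

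Per kilobase of exon, the scale on which genes can be compared, CDK4 was the most abundant of the 10 in every group, at a mean of 156.5 CPM per kb in siControl, 161.2 in siTARG1, 117.1 in RACK1-WT and 117.2 in RACK1-Mut cells. In siControl cells CDKN1B at 81.8 and CCNE1 at 78.5 followed, and their libraries overlapped. CDK6 at 34.5 and CDK2 at 33.1 came next and did not overlap. CCND1 at 14.1, CCND3 at 12.5 and CDKN1A at 11.4 overlapped with their neighbours in the order, CCNE2 was at 3.9, and CCND2 had no count. In siTARG1 cells CCNE1 at 106.5 stood above CDKN1B at 79.3, and CDKN1A at 2.06 stood below CCNE2 at 4.24, each without overlap. Neighbours that overlapped there were CCND3 and CCND1. In the RACK1-WT cells CCND1, at 28.6, stood above CDK6, at 15.2, and no neighbours overlapped. RACK1-Mut cells had the same order, with an overlap of CDK6 and CCND3. The authors' RPKM gave the same order in all 4 groups. It divides the same counts by the same lengths, so the order within a library was fixed in advance and is no separate support.

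Cyclin E is the partner of CDK2 at the G1/S transition. CCNE1 (ENSG00000105173) lies at chr19:30302898-30315219 on the plus strand of GRCh37. It was at 164.5 and 156.4 CPM in siControl cells, 224.6 and 210.7 in siTARG1 cells, 162.2 and 164.6 in RACK1-WT cells and 167.9 and 163.7 in RACK1-Mut cells. Both siTARG1 libraries were above the other 6, which lay within 156.4 to 167.9. The group means were 160.5 ± 5.72 in siControl and 217.6 ± 9.84 in siTARG1 cells (SD, n = 2). The log2 fold change of siTARG1 was 0.44 (SE 0.07, 95% interval 0.30 to 0.58, adjusted p = 9.2e-05), which ranked 2348th from the highest of 14024 genes. It was called under all 17 alternative settings, with adjusted p from 2.6e-08 to 0.0082. RACK1-Mut gave 0.02 (95% interval -0.12 to 0.16) and the difference of these effects was 0.42 (SE 0.09, adjusted p = 0.0035). With the deposited RPKM this difference was 0.48 with an adjusted p of 0.16. RACK1-WT against siControl gave 0.03 (95% interval -0.12 to 0.17, adjusted p = 0.75), and 0.46 (adjusted p = 0.012) with the deposited RPKM, which is 0.09 above the median of all genes on that scale.

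CCNE2 (ENSG00000175305), the second E-type cyclin, lies at chr8:95891998-95908906 on the minus strand, and NDUFAF6 and INTS8 overlap it on the opposite strand. Its levels were 12.8 and 13.8 CPM in siControl, 14.3 and 14.6 in siTARG1, 17.1 and 18.7 in RACK1-WT and 17.0 and 18.3 in RACK1-Mut cells. The siTARG1 libraries were just above the siControl libraries, and the log2 fold change of 0.12 (95% interval -0.08 to 0.33, adjusted p = 0.31) was not called. RACK1-Mut against RACK1-WT gave -0.02 (95% interval -0.22 to 0.18). RACK1-WT cells were 1.35-fold above siControl cells, a log2 fold change of 0.43 (SE 0.10, adjusted p = 0.0012), called under all 17 alternatives. CCNE1 made up 95.3% ± 0.409 of the summed E-cyclin level per kilobase in siControl, 96.2% ± 0.219 in siTARG1, 93.8% ± 0.288 in RACK1-WT and 94.0% ± 0.386 in RACK1-Mut cells (SD, n = 2). CCNE1 was thus the main E-type cyclin transcript in every library.

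CCND1 (ENSG00000110092; chr11:69455924-69469242, plus strand, overlapped by LTO1 on the other strand) encodes cyclin D1, which couples growth signals to CDK4 and CDK6. It was at 57.6 and 64.0 CPM in siControl, 55.7 and 56.9 in siTARG1, 124.7 and 121.8 in RACK1-WT and 110.2 and 124.5 in RACK1-Mut cells. The siTARG1 libraries were below the siControl libraries by a log2 fold change of -0.11 (95% interval -0.28 to 0.06, adjusted p = 0.28), which was not called. All 4 RACK1 libraries were above all 4 siRNA libraries. RACK1-WT against siControl gave 1.02 (SE 0.08, 95% interval 0.85 to 1.19, adjusted p = 7.7e-08), a 2.03-fold rise, and 1.44 with the deposited RPKM. RACK1-Mut against RACK1-WT gave -0.07 (95% interval -0.24 to 0.10).

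CCND3 (ENSG00000112576; chr6:41902672-42018095, minus strand) encodes cyclin D3. Its levels were 28.0 and 24.2 CPM in siControl, 31.1 and 27.4 in siTARG1, 28.8 and 26.9 in RACK1-WT and 26.9 and 29.0 in RACK1-Mut cells, and every pair of groups overlapped. The log2 fold changes were 0.16 for siTARG1 (95% interval -0.05 to 0.37), 0.01 for RACK1-Mut (-0.20 to 0.22) and 0.09 for RACK1-WT against siControl (-0.12 to 0.30). Counting coding-sequence reads alone, the siTARG1 value was 0.28 with an adjusted p of 0.044. With the deposited RPKM, RACK1-WT against siControl was 0.52 (adjusted p = 0.013), 0.15 above the median of all genes.

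CCND2 (ENSG00000118971; chr12:4378937-4414519, plus strand), the gene of cyclin D2, had 1 count in 1 RACK1-WT library and 0 in the other 7, and was not tested. The count of RACK1-WT replicate 1 is 0.0318 CPM. In the other 7 libraries a count of 0 allows up to 3 counts, at most 0.0981 CPM in siControl, 0.0718 in siTARG1, 0.0855 in RACK1-WT replicate 2 and 0.0741 in RACK1-Mut, which covers counting error only. CCND1 therefore made up 49.9% and 56.2% of the summed D-cyclin level per kilobase in the siControl libraries, and a mean of 48.3% ± 2.6 in siTARG1, 68.2% ± 0.692 in RACK1-WT and 67.0% ± 0.77 in RACK1-Mut cells (SD, n = 2), and CCND3 nearly all the rest. CCND2 and CCND3 have processed pseudogenes (CCND2P1, CCND3P1 and CCND3P2), and the alignment kept reads with many matches, so their counts are uncertain to that extent.

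CDK4 (ENSG00000135446; chr12:58141510-58149796, minus strand, overlapped by TSPAN31 and MARCHF9 on the other strand) is a kinase partner of the D cyclins and has a pseudogene, CDK4P1. It was at 340.5 and 309.4 CPM in siControl, 356.4 and 312.8 in siTARG1, 240.9 and 245.4 in RACK1-WT and 249.2 and 237.4 in RACK1-Mut cells. The siRNA groups overlapped, with a log2 fold change of 0.04 (95% interval -0.12 to 0.21). RACK1-WT cells were lower than siControl cells by -0.42 (SE 0.08, adjusted p = 3.2e-04), but with the deposited RPKM the difference was 0.02 (adjusted p = 0.94), which is -0.35 relative to the median of all genes. RACK1-Mut against RACK1-WT gave 0.00 (95% interval -0.17 to 0.17).

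CDK6 (ENSG00000105810; chr7:92234235-92465887, minus strand), the other kinase of the D cyclins, has a 3′ untranslated region (UTR) of 10219 of its 11729 exon bases. It was at 391.0 and 418.2 CPM in siControl, 323.6 and 386.5 in siTARG1, 184.9 and 171.8 in RACK1-WT and 158.7 and 191.5 in RACK1-Mut cells. The log2 fold change of siTARG1, -0.19 (95% interval -0.40 to 0.02, adjusted p = 0.13), was not called, and it was -0.33 (adjusted p = 0.011) without siTARG1 replicate 2 and -0.07 (adjusted p = 0.63) without siTARG1 replicate 1. All RACK1 libraries were below all siRNA libraries. RACK1-WT against siControl gave -1.18 (SE 0.10, 95% interval -1.40 to -0.97, adjusted p = 1.7e-07), that is 0.441 of the siControl level, and -0.74 with the deposited RPKM (adjusted p = 1.4e-04). Taken by region, that difference was -1.08 in coding reads and -1.20 in 3′ UTR reads. RACK1-Mut against RACK1-WT gave -0.03 (95% interval -0.24 to 0.19). The CDK6 level was 22.1% ± 2.54 of the CDK4 level per kilobase in siControl, 19.0% ± 4.1 in siTARG1, 13.0% ± 0.842 in RACK1-WT and 12.8% ± 2.12 in RACK1-Mut cells (SD, n = 2).

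CDK2 (ENSG00000123374; chr12:56360565-56366573, plus strand, overlapped by PMEL on the other strand), the partner of cyclin E, had the narrowest range of the 9 tested genes relative to its level, with 76.0 and 75.9 CPM in siControl, 81.4 and 81.8 in siTARG1, 75.9 and 74.7 in RACK1-WT and 74.8 and 72.1 in RACK1-Mut cells. Both siTARG1 libraries were the highest, but the log2 fold change of 0.10 (95% interval -0.04 to 0.24, adjusted p = 0.22) was not called. RACK1-Mut against RACK1-WT gave -0.04 (95% interval -0.18 to 0.11). RACK1-WT against siControl gave -0.01 (95% interval -0.15 to 0.13), and 0.42 (adjusted p = 0.02) with the deposited RPKM, 0.05 above the median of all genes.

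CDKN1A (ENSG00000124762; chr6:36644237-36655114, plus strand, overlapped by the long noncoding RNA DINOL on the other strand) encodes p21. It had 1192 and 834 counts in the siControl libraries, 218 and 216 in siTARG1, 117 and 145 in RACK1-WT and 201 and 185 in RACK1-Mut. These correspond to 29.9 and 27.3 CPM in siControl, 5.16 and 5.17 in siTARG1, 3.72 and 4.13 in RACK1-WT and 4.96 and 4.3 in RACK1-Mut cells. Both siControl libraries were high, and the other 6 lay together at 3.72 to 5.17. The log2 fold change of siTARG1 was -2.47 (SE 0.11, 95% interval -2.71 to -2.23, adjusted p = 1.6e-09), the 50th lowest of 14024 genes. It was called under all 17 alternative settings, with adjusted p from 4.1e-62 to 8.0e-07, and was -2.24 with the deposited RPKM. Without each library in turn it lay between -2.53 and -2.39. RACK1-Mut against RACK1-WT gave 0.23 (95% interval -0.05 to 0.52), with both RACK1-Mut libraries above both RACK1-WT libraries, and the difference of these effects was -2.70 (SE 0.17, adjusted p = 1.2e-07). RACK1-WT against siControl gave -2.86 (SE 0.12, adjusted p = 1.2e-10), the 112th lowest, and -2.30 with the deposited RPKM. The last comparison and that of siTARG1 rest on the same 2 siControl libraries.

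**Figure D2:**
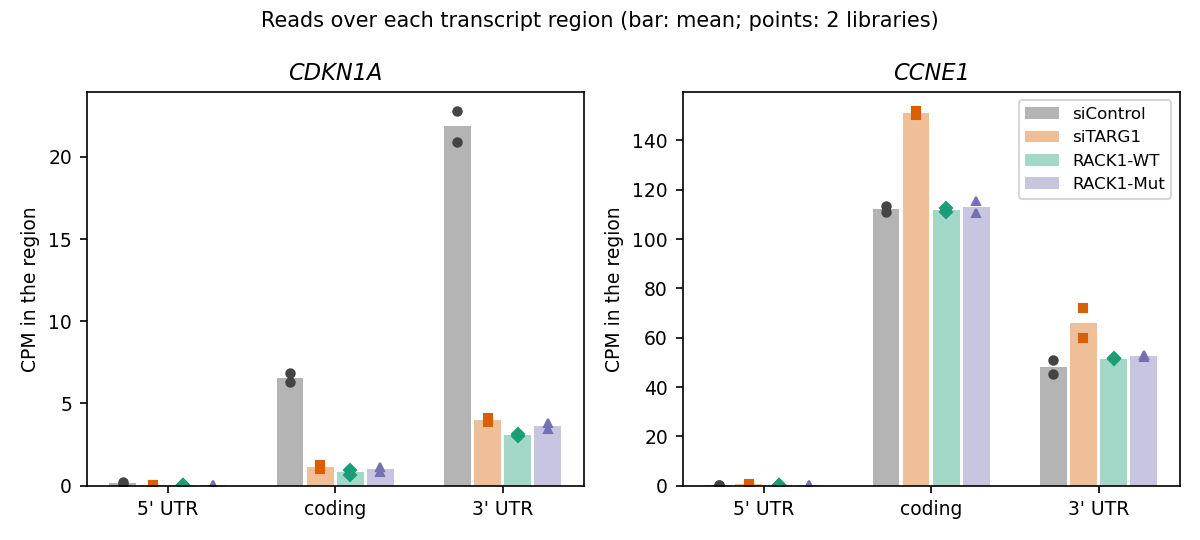
Reads over the 5′ UTR, the coding sequence and the 3′ UTR of CDKN1A (left) and CCNE1 (right), in CPM of the region. Bars are the mean and points the 2 libraries of each group. CDKN1A is highest in siControl cells, and CCNE1 in siTARG1 cells, in coding reads as well as in 3′ UTR reads.

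The changes of CDKN1A and CCNE1 lay in both parts of the transcript, as the plot of reads by region shows. Over the CDKN1A coding sequence the siControl libraries had 6.86 and 6.28 CPM, the siTARG1 libraries 1.25 and 1.02, and the RACK1 libraries 0.666 to 1.16. Over its 3′ UTR the siControl libraries had 22.8 and 20.9 CPM and the siTARG1 libraries 3.9 and 4.12. As log2 ratios of siTARG1 to siControl, CDKN1A was at -2.53 in coding reads and -2.45 in 3′ UTR reads, and CCNE1 at 0.43 and 0.46. The 3′ UTR held 76.5% ± 0.313 to 78.9% ± 4.01 of the CDKN1A reads (SD, n = 2), against 61.3% of its length.

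CDKN1B (ENSG00000111276; chr12:12838432-12875303, plus strand, overlapped by GPR19 on the other strand) encodes p27. It was at 199.1 and 235.7 CPM in siControl, 198.3 and 223.1 in siTARG1, 137.5 and 136.2 in RACK1-WT and 163.4 and 148.3 in RACK1-Mut cells. The siRNA groups overlapped, and the log2 fold change of -0.04 (95% interval -0.23 to 0.14) was not called. Both RACK1-Mut libraries were above both RACK1-WT libraries, with a log2 fold change of 0.19 (95% interval -0.00 to 0.38, unadjusted p = 0.052, adjusted p = 1). RACK1-WT cells were lower than siControl cells by -0.67 (SE 0.09, adjusted p = 1.6e-05), but with the deposited RPKM the difference was -0.23 (adjusted p = 0.18), or -0.60 relative to the median of all genes.

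The balance of activators and inhibitors among these transcripts is given as a description, per kilobase and with no test. CDKN1A stood at 14.1% ± 2.58 of CDKN1B in siControl cells, 2.6% ± 0.213 in siTARG1, 3.04% ± 0.246 in RACK1-WT and 3.14% ± 0.103 in RACK1-Mut cells. CCNE1 was 0.848 ± 0.112 times the sum of CDKN1A and CDKN1B in siControl cells, 1.32 ± 0.166 times in siTARG1, 1.51 ± 0.0224 times in RACK1-WT and 1.34 ± 0.0692 times in RACK1-Mut cells (SD, n = 2). CCNE1 was below the sum in both siControl libraries, at 0.927 and 0.769, and above it in the other 6.

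**Figure D3:**
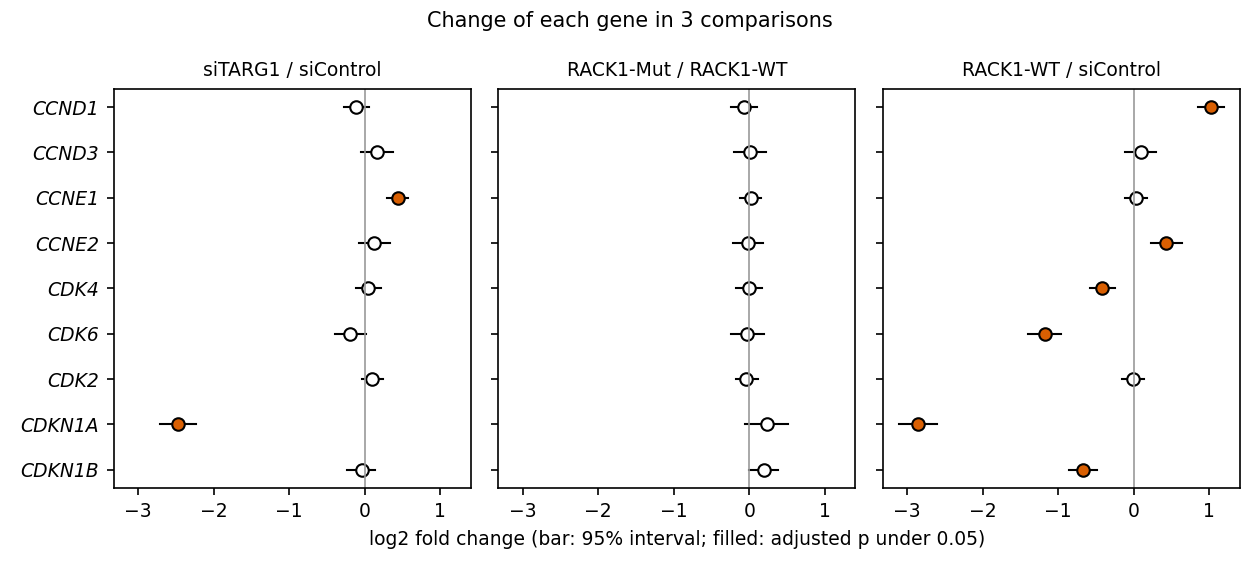
Log2 fold change of the 9 tested genes in the comparisons of siTARG1 with siControl (left), RACK1-Mut with RACK1-WT (middle) and RACK1-WT with siControl (right). Points are edgeR estimates, bars 95% intervals, and filled points have an adjusted p under 0.05. CCNE1 and CDKN1A are filled on the left, none in the middle and 6 genes on the right.

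The other genes of the pathway were examined in siTARG1 against siControl cells. As for CDKN1A, whether differences reflect the knockdown or a trait of the siControl libraries was not tested. In that comparison 46.6% of all genes were called, and 25.4% on the deposited RPKM scale. RACK1-WT against siControl gave 63.3% and 55.5%, with 87.9% of its RPKM calls higher. Of 35 other cyclins and CDKs tested, 22 were called (62.9%), 5 higher and 17 lower, and the median log2 fold change was -0.15 against 0.01 over all genes. CDK14, a kinase of the cyclin Y group, rose by 1.02 (7.75 to 15.7 CPM, adjusted p = 5.2e-06) and CCNT2, a cyclin of transcription elongation, by 0.61. CCNY, a membrane-associated cyclin, changed by -0.69 and CCNC, the cyclin of the Mediator kinase, by -0.59. On the deposited RPKM scale 8 of the 35 were called, 4 in each direction, with a median of -0.05. In RACK1-WT against siControl cells 20 of the 35 were called (57.1%), 4 higher and 16 lower, and on the RPKM scale 7, 6 higher and 1 lower. With edgeR that comparison gave -1.45 for CDK14, -0.06 for CCNT2, -0.06 for CCNY and -0.17 for CCNC. Of 6 further CDK inhibitors listed, CDKN2A had no row and 4 were tested. In siTARG1 against siControl cells 2 of the 4 were called (50%, near the share of all genes) and both were lower. They were CDKN2B, which encodes p15, an inhibitor of CDK4 and CDK6, at -0.72 (29.5 to 17.9 CPM), and CDKN3, a phosphatase of CDKs, at -0.53.

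Of 18 genes of the RB family, the E2F family and the DREAM complex, which represses cell cycle genes in resting cells, 13 were called. That is 72.2%, against 46.6% of all genes, with 9 higher, 4 lower and a median of 0.25. RBL1, a relative of RB1, rose by 0.68 (25.6 to 40.9 CPM, adjusted p = 2.2e-05) and E2F1, an activator of S-phase genes, by 0.64 (50.6 to 78.7 CPM, adjusted p = 1.0e-05). TFDP2 and TFDP1, the dimer partners of E2F factors, changed by -0.29 and -0.27. On the deposited RPKM scale, where 25.4% of all genes were called, 7 of the 18 were called, all higher. Neither TFDP gene was among them. In RACK1-WT against siControl cells 15 of the 18 were called (83.3%, against 63.3% of all genes), 7 higher and 8 lower. On the RPKM scale 8 were called, 7 higher and 1 lower, where 55.5% of all genes were called and 87.9% of those were higher. With edgeR, RACK1-WT against siControl gave 0.44 for RBL1, 1.22 for E2F1, -0.17 for TFDP2 and -1.32 for TFDP1. Of 24 regulators of G1/S and of cyclin turnover, 11 were called, 4 higher and 7 lower, a share of 45.8% near the background. On the RPKM scale 5 were called, 3 higher and 2 lower. In RACK1-WT against siControl cells 58.3% were called and the split was 3 higher and 11 lower, or 8 and 3 on that scale. CRYAB rose by 1.71 from a low level (0.628 to 2.06 CPM), and PKMYT1, a kinase that inhibits CDK1, by 0.49. USP28, a deubiquitinase that counters the cyclin E ligase FBXW7, changed by -0.89 (78.3 to 42.3 CPM, adjusted p = 2.1e-07) and CUL4A, a cullin ligase subunit, by -0.59. With edgeR, RACK1-WT against siControl gave 4.22 for CRYAB, 0.25 for PKMYT1, -0.65 for USP28 and -0.88 for CUL4A.

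Of 36 E2F target genes, most of them replication genes, 18 were called, a share of 50% against 46.6% over all genes. Of these 16 were higher and 2 lower, and the median was 0.18 against 0.01 over all genes. MCM3, a subunit of the replicative helicase, rose by 0.89 (101.2 to 188.1 CPM, adjusted p = 1.9e-07) and GINS1, another helicase component, by 0.65 (18.1 to 28.3 CPM). UHRF1, which maintains DNA methylation, changed by -0.52 and RRM2, a subunit of ribonucleotide reductase, by -0.37. On the deposited RPKM scale 9 of the 36 were called, all higher, where 25.4% of all genes were called, so that the calls of UHRF1 and RRM2 were lost. RACK1-WT against siControl cells had 21 of the 36 called (58.3%, against 63.3% of all genes), 16 higher and 5 lower. On the RPKM scale 25 were called, all higher, where 55.5% of all genes were called and 87.9% of those were higher. With edgeR, RACK1-WT against siControl gave 0.29 for MCM3, 1.28 for GINS1, -0.20 for UHRF1 and -0.55 for RRM2.

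Of 23 other p53 target genes tested, 16 were called (69.6%, against 46.6% of all genes), 10 higher and 6 lower, with a median of 0.20. On the RPKM scale, where 25.4% of all genes were called, 10 were called, 7 higher and 3 lower. The direction of CDKN1A was thus that of 6 of the 16 called with edgeR. FAS, a death receptor, changed by -1.57 (95.7 to 32.2 CPM, adjusted p = 4.6e-09) and TNFRSF10B, another death receptor, by -0.87 (166.6 to 91.2 CPM, adjusted p = 7.6e-07). GDF15, a stress cytokine, rose by 1.08 (3.37 to 7.28 CPM) and SESN2, a stress-induced inhibitor of mTORC1, by 0.94 (18.6 to 35.8 CPM). In RACK1-WT against siControl cells 18 of the 23 were called (78.3%, against 63.3% of all genes), 11 higher and 7 lower. On the RPKM scale 15 were called, 13 higher and 2 lower, where 55.5% of all genes were called and 87.9% of those were higher. With edgeR, RACK1-WT against siControl gave -1.29 for FAS, -0.20 for TNFRSF10B, 3.08 for GDF15 and 0.10 for SESN2. FAS was at 39.1 CPM in RACK1-WT and 44.1 in RACK1-Mut cells. Of 19 growth factor response genes, 13 were called (68.4%), 4 higher and 9 lower, with a median of -0.43, and on the RPKM scale 8, 3 higher and 5 lower. JUNB, an AP-1 subunit, rose by 0.94 and DUSP5, a phosphatase of ERK, by 0.43. PHLDA1 changed by -3.01 (28.2 to 3.51 CPM, adjusted p = 3.8e-10) and EGR3 by -1.92 from 0.36 CPM, a level of few counts. In RACK1-WT against siControl cells 13 of the 19 were called (68.4%, near the 63.3% of all genes), 9 higher and 4 lower. On the RPKM scale 14 were called, 12 higher and 2 lower, a split near that of all genes. With edgeR, RACK1-WT against siControl gave 0.61 for JUNB, 1.05 for DUSP5, -1.60 for PHLDA1 and -2.24 for EGR3. In RACK1-Mut against RACK1-WT cells no gene of any of these lists was called, where 0.00713% of all genes were called.

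**Figure D4:**
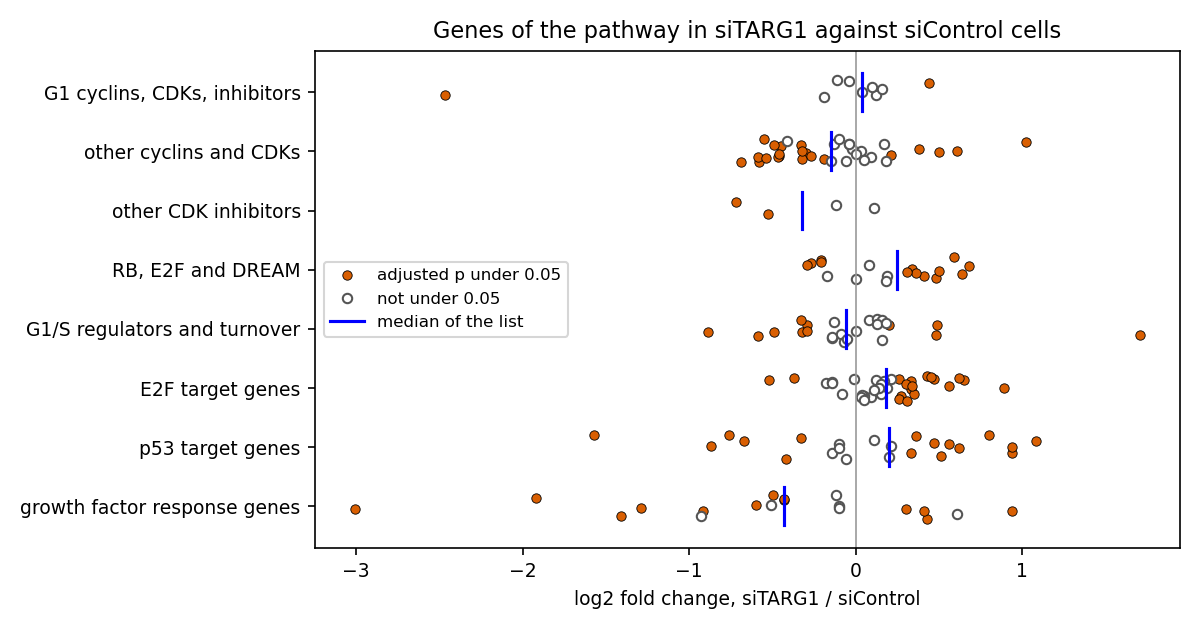
Log2 fold change between siTARG1 and siControl cells for each tested gene of the 10 and of 7 lists of related genes. Filled points have an adjusted p under 0.05 and the line marks the median of the list. The lowest point of the top row is CDKN1A, at -2.47, and 16 of the 18 filled E2F target genes lie above 0.

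The genes whose levels followed CCNE1, CCND1 and CDKN1A most closely were found by Pearson's r of log2 CPM over the 8 libraries, which share 4 groups, among 8134 genes with a mean log2 CPM of at least 4. They are given as a description. For CCNE1 they were WDR5 (r = 0.997), SRPRB (0.992) and B3GAT3 (0.991), each highest in siTARG1 cells, as WDR5 with 69.9 CPM against 45.0 in siControl, 47.7 in RACK1-WT and 48.2 in RACK1-Mut cells. For CCND1 they were SEMA3C (0.997), OTUD3 (0.996) and EPHB2 (0.996), each highest in the RACK1 lines, as SEMA3C with 28.3 and 25.8 CPM against 11.6 in siControl and 9.91 in siTARG1 cells. For CDKN1A they were PRSS23 (0.997), FAM120B (0.996) and MEOX1 (0.996), each highest in siControl cells, as PRSS23 with 485.7 CPM against 143.2 in siTARG1, 113.7 in RACK1-WT and 138.3 in RACK1-Mut cells.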

How the data were processed

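RNA-seq libraries were made from rRNA-depleted total RNA of input lysates with a stranded kit. The authors removed rRNA reads with Bowtie 1.1.2, aligned the rest to a GRCh37 and Gencode v24 transcriptome with TopHat2 2.1.1, keeping multiply matching reads, and counted alignments of 25 to 51 bases with Plastid. Whether counting used strand is not given in the sources used here. The deposited exon values are estimated counts, not normalized, which were rounded. The deposited RPKM were scaled by the authors to region length and all alignments.

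Symbols and GRCh37 coordinates came from Gencode v44lift37 (94.7% of 36595 transcript names matched). Rows matching no gene (553, 1.19% of counts) stayed in the fits. edgeR 4.0.16 (R 4.3.3) fitted 4 group means with TMM and filterByExpr, leaving 4 residual degrees of freedom. SE is the size of the log2 fold change over the root of F. P-values were adjusted by Benjamini-Hochberg over 14024 genes. The fit was run on simulated counts in which few genes changed, unlike these data, so that run gives no error rate for them. Named besides the 10 genes were both targeted genes, the 2 highest and 2 lowest called genes of each list whose siTARG1 and siControl libraries do not overlap, the 3 nearest in pattern and the cell type markers. The genes, lists and tests were chosen with earlier results of these data known. Alternatives were DESeq2 1.42.0, RLE, other filters, the libraries compared only, a replicate block, rows summed by symbol, coding-sequence reads and each library left out. The deposited RPKM (limma 3.58.1, log2 of RPKM plus 0.1, which understates changes of low genes) was added after seeing the data. Depth was at least 30989049 exon counts, and each group had 2 libraries.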

Additional observations from a re-analysis of the deposited data

Results flagged for a closer look

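The effect of siTARG1 and that of RACK1-Mut differed for 2 of the 9 tested genes, by the interaction of the effects in edgeR's quasi-likelihood test over 14024 genes. For CCNE1 the difference was 0.42 on the log2 scale (SE 0.09, adjusted p = 0.0035), from 0.44 with siTARG1 and 0.02 with RACK1-Mut, and it was called in 15 of 16 alternatives, the exception being the deposited RPKM (0.48, adjusted p = 0.16). For CDKN1A the difference was -2.70 (SE 0.17, adjusted p = 1.2e-07), from -2.47 with siTARG1 and 0.23 with RACK1-Mut, and it was called in all 16. The siRNA and RACK1 experiments also differ in line, construct and doxycycline, which cannot be told apart from the treatments.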

How the results depend on the processing

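Of the calls for the 10 genes, those of CCNE1 and CDKN1A in siTARG1 and of CCNE2, CCND1, CDK6 and CDKN1A in RACK1-WT against siControl held in all 17 alternatives. With the deposited RPKM, calls were lost for CCNE1 in the difference of effects (0.48, leaving 1 of the 10 called) and in RACK1-WT against siControl for CDKN1B (-0.23) and CDK4 (0.02, reversed), while CCNE1 (0.46), CCND3 (0.52) and CDK2 (0.42, reversed) were gained there. RPKM calls over all genes were 3557 for siTARG1 against 6537, 7 for RACK1-Mut, 1684 for the difference against 4550 and 7787 for RACK1-WT over siControl, where edgeR called 8881. Gained elsewhere were CCND3 with coding-sequence reads (0.28), CDK6 without siTARG1 replicate 2 (-0.33, against -0.07 without replicate 1), and CDKN1B in the difference without siTARG1 replicate 2 (-0.33, adjusted p = 0.046, within a range of -0.34 to -0.10 with a library left out). For RACK1-Mut against RACK1-WT, 1 gene of all was called. The count was 15 with no filter, 0 with at least 10 counts in every library, 2 with coding-sequence reads, 49 with only the libraries compared, 17 with DESeq2, and 0 to 9 with a library left out, and it was 0 without RACK1-WT replicate 1 or RACK1-Mut replicate 1. The cause was not tested.

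Changes of sign were otherwise limited to values that were not called. In siTARG1 they were CDKN1B with coding-sequence reads (0.00) and RPKM (0.06). In RACK1-Mut they were CCNE2 with coding-sequence reads (0.03) and RPKM (0.02), CDK2 (0.00) and CDK6 (0.01) with RPKM, and CDK4 with coding-sequence reads (-0.01), the replicate block (-0.00) and only the libraries compared (-0.00). In the difference it was CCND1 with RPKM (0.03). In RACK1-WT against siControl it was CDK2 with RLE (0.00), at least 10 counts (0.01), coding-sequence reads (0.01), only the libraries compared (0.00) and DESeq2 (0.00). With a library left out, ranges spanning 0 were for siTARG1 CDK4 (-0.05 to 0.13) and CDKN1B (-0.15 to 0.09), for RACK1-Mut CCNE2 (-0.08 to 0.04), CCND1 (-0.16 to 0.02), CCND3 (-0.05 to 0.06), CDK4 (-0.03 to 0.04) and CDK6 (-0.17 to 0.10), for the difference CCND1 (-0.13 to 0.04) and CDK4 (-0.05 to 0.12), and for RACK1-WT CCNE1 (-0.01 to 0.07) and CCND3 (-0.01 to 0.21).

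Samples share only a replicate number. Its block moved the all-gene RACK1-Mut count to 3 and changed no call of the 10 genes. Same-numbered replicate differences correlated at 0.256 between siControl and siTARG1 and at 0.028 between RACK1-WT and RACK1-Mut over 14024 genes. Depth limits CCND2, with 1 count in all.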

Other observations

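The genes of this paragraph were chosen after their values were seen. Among E2F family members, siTARG1 cells were higher than siControl cells for E2F2 (log2 fold change 0.34, adjusted p = 0.014), E2F3 (0.48, adjusted p = 6.0e-05), E2F4 (0.59, adjusted p = 4.4e-06) and E2F6 (0.41, adjusted p = 0.0012), as they were for E2F1, while E2F5 (0.19), E2F7 (0.18) and E2F8 (-0.17) were not called. On the deposited RPKM scale the calls of E2F2 and of MDM2, below, were lost. With edgeR, RACK1-WT against siControl gave 1.96 for E2F2, -0.77 for E2F3, -0.56 for E2F4, -0.25 for E2F6 and 0.49 for MDM2. MDM2, a p53 target that encodes the ubiquitin ligase of p53, rose by 0.33 (128.2 to 161.1 CPM, adjusted p = 0.0081) in siTARG1 cells, in which CDKN1A fell. RRM2B, the p53-induced subunit of ribonucleotide reductase, rose by 0.94 (15.2 to 29.0 CPM) in siTARG1 cells and by 2.15 in RACK1-WT against siControl cells.

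Genes within 500 kb of CCNE1 and CDKN1A on GRCh37 were also looked at after the values were seen. Near CCNE1, 4 genes were tested in siTARG1 against siControl cells: PLEKHF1 rose by 1.06 (55.3 to 115.5 CPM) and C19orf12 by 0.27, POP4 changed by -0.35, and URI1, at 862.5 and 941.8 CPM, was at 0.13 and not called. Near CDKN1A, 10 genes were tested, with values from -0.62 (PPIL1) to 0.82 (ETV7) and a median of -0.10, of which 1 was called higher and 3 lower. In the same comparison 46.6% of all genes were called, so calls among so few neighbours are a description only.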
